A study of Mus musculus with 8 samples.

Results

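The 5 genes described here encode transporters that fill synaptic vesicles with a transmitter. Slc17a6, Slc17a7 and Slc17a8 encode the vesicular glutamate transporters VGLUT2, VGLUT1 and VGLUT3. Slc17a9 encodes the vesicular nucleotide transporter VNUT, and Slc32a1 encodes VGAT, which loads GABA and glycine. They were chosen by name, and all 5 were found among the 55573 genes counted. Reads were assigned to 3 of them, while Slc17a9 and Slc32a1 had 0 counts in all 8 libraries.

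RNA sequencing was done on C low-threshold mechanoreceptors (C-LTMRs), unmyelinated sensory neurons of light touch, collected from adult mice by fluorescence sorting for GFP. The sources used here do not say which gene drives the GFP, so whether the sort involves one of these transporters is not known. The WT groups were wild type and the KO groups lacked Bhlha9, which encodes a basic helix-loop-helix transcription factor, and the study's title concerns temperature choice, formalin pain and differences between the sexes. Male WT, male KO, female WT and female KO groups held 2 libraries each, stated to be biological replicates.

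A vesicular transporter decides which transmitter a neuron can release by exocytosis, because it uses the proton gradient across the vesicle membrane to concentrate that molecule inside. Primary sensory neurons are glutamatergic. Most express VGLUT2, large myelinated afferents also express VGLUT1, and VGLUT3 is known as a marker of C-LTMRs among adult sensory neurons. GABA and glycine are the transmitters of inhibitory interneurons of the spinal cord.

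Total counts per library lay between 50919885 and 71956309. Values are given in CPM (read counts scaled to the size of the library with TMM factors), or per length (CPM per kilobase of exon) where genes are compared with each other. Bhlha9 stood between 127 and 161 CPM in the WT libraries and between 0.156 and 0.470 CPM in the KO libraries, so the genotypes were visible in the reads. All 10 C-LTMR markers examined were detected in every library. Per length they were led by Th (tyrosine hydroxylase), Ret (the signalling receptor of the GDNF family) and Gfra2 (the co-receptor for neurturin). Th lay between 2976 and 5359 CPM. Markers of other cells were present too. Summed over 11 markers of myelinated afferents, male_KO1 stood apart with 2196 CPM, against 351 to 597 CPM in the other 7 libraries. Of the 2196 CPM, 1551 CPM came from 1 gene, Nefh (a neurofilament chain).

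Slc17a6 and Slc17a7 lie on chromosome 7 of GRCm38, from 51622006 to 51671119 and from 45163949 to 45176142, both on the plus strand. Slc17a8 lies on the minus strand of chromosome 10, from 89574020 to 89621253. Slc17a9 (180725263 to 180742280) and Slc32a1 (158610767 to 158615748) both lie on the plus strand of chromosome 2. The exons counted span 5399, 5392, 4720, 3200 and 2797 bp in the order Slc17a6, Slc17a7, Slc17a8, Slc17a9 and Slc32a1. Only the exons of Slc32a1 overlapped those of another gene, by 697 bp of the antisense gene Gm14205, which also had 0 counts.

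Basic helix-loop-helix factors as a class recognise E-boxes, written CANNTG, on either strand. The 250 bases before the first RefSeq start (GRCm38.p6) of the 3 transporters with counts are printed to show how many of these letters they hold, with every match in capitals, 5′ to 3′ on the strand of the gene. The stretches lie at chr7:51621580-51621829 (plus strand), chr7:45163671-45163920 (plus strand) and chr10:89621250-89621499 (minus strand).
Slc17a6: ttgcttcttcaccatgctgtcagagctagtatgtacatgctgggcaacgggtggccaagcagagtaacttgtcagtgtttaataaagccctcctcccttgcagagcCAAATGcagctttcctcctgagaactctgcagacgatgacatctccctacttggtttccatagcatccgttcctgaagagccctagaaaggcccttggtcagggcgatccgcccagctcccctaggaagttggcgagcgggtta
Slc17a7: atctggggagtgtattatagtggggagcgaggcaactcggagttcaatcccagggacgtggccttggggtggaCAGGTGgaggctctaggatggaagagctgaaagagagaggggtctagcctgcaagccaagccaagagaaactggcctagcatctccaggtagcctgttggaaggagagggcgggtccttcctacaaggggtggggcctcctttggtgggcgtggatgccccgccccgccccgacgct
Slc17a8: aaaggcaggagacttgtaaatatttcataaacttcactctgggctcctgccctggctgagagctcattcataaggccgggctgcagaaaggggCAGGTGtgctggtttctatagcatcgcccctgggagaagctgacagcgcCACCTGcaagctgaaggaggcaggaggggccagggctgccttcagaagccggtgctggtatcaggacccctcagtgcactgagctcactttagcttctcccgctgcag
At these starts Slc17a6 and Slc17a7 each held 1 match and Slc17a8 held 2. The windows before the second start listed for Slc17a6 held 2 and for Slc17a8 held 1, so the order of these genes depends on the start. The window of Slc32a1 held 2. Of the 32851 windows of this length in the table, 66.2% held at least 1 match and 31.8% at least 2. A match is a description of letters and not a binding site. RefSeq promoters were matched for 4 of the 5 genes, all except Slc17a9.

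Slc17a6 was the most abundant of the 5 transporters per length in every library. It stood at 192 and 218 CPM in male WT, 162 and 213 CPM in male KO, 187 and 195 CPM in female WT, and 183 and 249.6 CPM in female KO. The highest library was 1.54 times the lowest, and KO and WT values overlapped in each sex. Per length its mean over the 8 libraries was 37.1 ± 4.91 (SD, n = 8), above 90.7% of the 22013 genes tested.

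Slc17a8 came next per length in all libraries except male_KO1. It was read at 37.3 and 49.0 CPM in male WT, 35.6 and 30.9 CPM in male KO, 49.8 and 35.7 CPM in female WT, and 55.0 and 41.5 CPM in female KO. The lowest level was in male_KO2 and the highest in female_KO1. Its mean per length was 8.87 ± 1.80 (SD, n = 8), above 72.8% of tested genes. The ranges of Slc17a6 and Slc17a8 did not meet, and the level of Slc17a6 per length was from 2.91 (female_KO1) to 6.04 times (male_KO2) that of Slc17a8.

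Slc17a7 varied most between libraries, within groups too. It was read at 3.39 and 2.44 CPM in male WT, 162 and 6.06 CPM in male KO, 0.0882 and 14.1 CPM in female WT, and 0.0783 and 0.0421 CPM in female KO. The 3 lowest values rested on 5, 4 and 3 counts, at or near the 3 counts below which a level is not told from 0. Male_KO1, with 9325 counts, matched Slc17a6 per length (30.0 for both genes). In the remaining 7 libraries Slc17a7 made up between 0.0142% and 5.65% of the summed level of the 3 VGLUT genes per length, against 44.4% in male_KO1. Within groups its log2 CPM had an SD of 2.96, larger than 99.7% of the 11858 tested genes with a mean of at least 5 CPM. The SD was 0.22 for Slc17a6 and 0.27 for Slc17a8, where the median gene had 0.35.

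**Figure D1:**
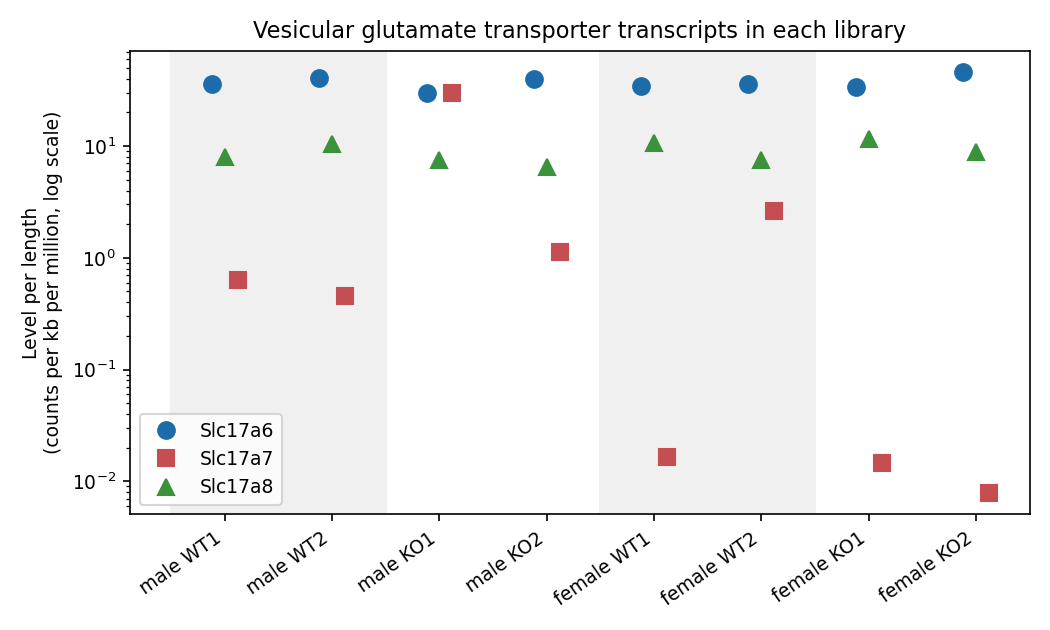
Level per length (CPM per kilobase of exon, log axis) of the 3 detected transporters in each of the 8 libraries, 1 point per library and gene; shading marks WT. Slc17a6 and Slc17a8 form level bands, while Slc17a7 runs from 0.00781 in female_KO2 to 30.0 in male_KO1.

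Neither the nucleotide transporter Slc17a9 nor the inhibitory transporter Slc32a1 received a read. A count of 0 allows a level of up to 3 counts, which was between 0.0421 CPM (female_KO2) and 0.0587 CPM (female_KO1) per library. Over the 491658002 counts of the 8 libraries it was 0.00610 CPM. The 37 mitochondrial genes, which every cell expresses, also had 0 counts in this file, so a 0 can arise in ways other than a low level, and which applies to Slc17a9 and Slc32a1 was not tested. The limits cover counting error only, since the reads came from PCR-amplified cDNA without molecular identifiers.

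Loss of Bhlha9 was compared with WT in males, in females and across both sexes with edgeR's quasi-likelihood test, where a gene passed at an adjusted p below 0.05 over all tested genes. Slc17a6, Slc17a7 and Slc17a8 could be tested, and none of the 3 passed. Of all tested genes 0.00454% passed across both sexes, 0.00454% in males and 0.00454% in females, in each case 1 gene, Bhlha9. DESeq2, run as an alternative, passed 52, 166 and 167 genes, none of them a member. Unadjusted p values below 0.05 were given to 3.56%, 3.50% and 3.81% of genes, and among the members to Slc17a7 in females alone. The authors' deposited tables list 150 genes for males and 13 for females, and none of the 5 transporters is among them.

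Slc17a6 averaged 205 ± 18.3 CPM in male WT and 188 ± 36.1 CPM in male KO (SD, n = 2 each). KO was at -0.13 relative to WT on the log2 scale (SE 0.22, 95% interval -0.64 to 0.38, edgeR adjusted p = 1). In females the means were 191 ± 5.61 and 216 ± 46.8 CPM, with a log2 fold change of 0.18 (SE 0.22, edgeR adjusted p = 1). Across both sexes it was 0.02, with an interval of -0.33 to 0.37. The sign in males turned to 0.054 without male_KO1, and in females to -0.067 without female_KO2. No member had all 4 KO libraries on the same side of all 4 WT libraries, which 0.936% of tested genes had above and 0.895% below.

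Slc17a8 averaged 43.2 ± 8.25 CPM in male WT and 33.2 ± 3.35 CPM in male KO (SD, n = 2 each). Both male KO libraries lay below both male WT libraries, as they did for 14.5% of all tested genes. Its change was -0.38 on the log2 scale (SE 0.28, 95% interval -1.04 to 0.28, edgeR adjusted p = 1). Of the 10 C-LTMR markers, which do not include Slc17a8, all had negative fold changes in males, with a median of -0.35 against 0.02 over all tested genes. None passed in edgeR or DESeq2, and 1, Cacna1h (a T-type calcium channel), had an unadjusted edgeR p below 0.05, against 3.50% of all tested genes. Their summed level was 8760 and 8781 CPM in male WT, 5736 CPM in male_KO1 and 8050 CPM in male_KO2. In females 9 of the 10 markers were positive (median 0.21), and for the difference between the sexes all 10 were negative (median -0.45). For that difference 0 passed in edgeR and DESeq2 passed 1, Cacna1h. Of the markers 2 (Fam19a4 and Cacna1h) had an unadjusted edgeR p below 0.05 there, against 4.73% of all tested genes. Slc17a8 had the same signs, and so had Slc17a6, also outside the list (-0.13 in males, 0.18 in females and -0.31 for the difference). The lowest Slc17a8 level was in male_KO2 and the lowest marker sum in male_KO1. The part of the C-LTMR share in the values of Slc17a8 was not tested. Fewer C-LTMRs in a sort and less RNA per cell cannot be told apart in such bulk samples.

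In females Slc17a8 averaged 42.7 ± 9.99 CPM in WT and 48.3 ± 9.565 CPM in KO, and the libraries overlapped (log2 fold change 0.18, SE 0.28, edgeR adjusted p = 1). The sign turned to -0.046 without female_WT2 and to -0.040 without female_KO1. Across both sexes the log2 fold change was -0.10, with an interval of -0.58 to 0.38, and 0.030 without male_WT2. The difference between the sexes in the KO effect was -0.55 (SE 0.39, edgeR adjusted p = 1), and for Slc17a6 it was -0.31 (SE 0.30, edgeR adjusted p = 1). In that comparison 0.00% of tested genes passed in edgeR, 4.73% had an unadjusted p below 0.05, and DESeq2 passed 217 genes. Between WT males and WT females Slc17a8 differed by 0.01 (SE 0.28) and Slc17a6 by 0.10 (SE 0.22), with edgeR adjusted p values of 1 and 0.995. There 0.00% of tested genes passed in edgeR, 4.44% had an unadjusted p below 0.05, and DESeq2 passed 135 genes.

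**Figure D2:**
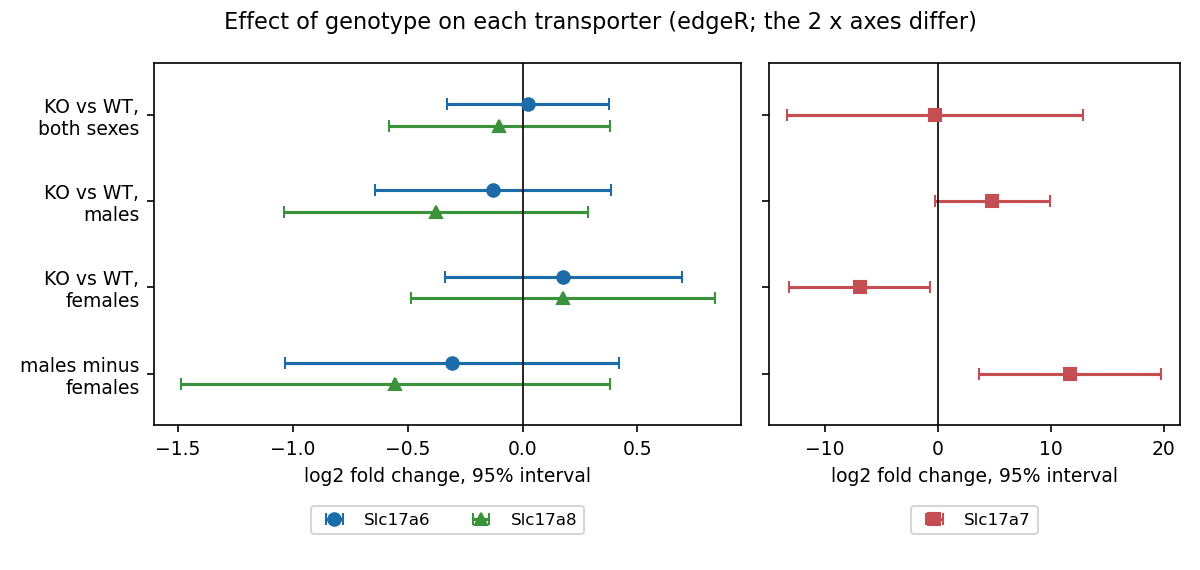
Log2 fold changes from edgeR with 95% intervals for KO against WT across both sexes, in males and in females, and for males minus females, for Slc17a6 and Slc17a8 (left) and Slc17a7 (right, on a wider axis). All intervals of Slc17a6 and Slc17a8 include 0. Those of Slc17a7 include 0 across both sexes (-13.28 to 12.89) and in males (-0.23 to 9.92). They exclude 0 in females (-13.11 to -0.66) and for males minus females (3.70 to 19.76). The intervals are not adjusted for the number of genes, and Slc17a7 passed in no comparison in edgeR.

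Slc17a7 had opposite signs in the sexes, and neither sign turned when any 1 library was left out, though the sizes moved widely. In males it averaged 2.92 ± 0.677 CPM in WT and 83.8 ± 110.0 CPM in KO (SD, n = 2 each), a log2 fold change of 4.84 (SE 2.13, 95% interval -0.23 to 9.92, edgeR adjusted p = 1). Both male KO libraries lay above both male WT libraries, as for 14.5% of tested genes. Without male_KO1 the value was 1.05 (unadjusted p = 0.616, edgeR adjusted p = 1), and without male_KO2 it was 5.77 (unadjusted p = 0.0260, edgeR adjusted p = 0.644).

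In females Slc17a7 averaged 7.11 ± 9.93 CPM in WT and 0.0602 ± 0.0256 CPM in KO (SD, n = 2 each). Both female KO libraries lay below both female WT libraries, as for 15.1% of tested genes, though female_WT1 had 5 counts and the KO libraries 4 and 3. The change was -6.89 on the log2 scale (SE 2.61, unadjusted p = 0.0348, edgeR adjusted p = 1), and without female_WT2 it was -0.59 (SE 2.47, edgeR adjusted p = 1). Without female_WT1 it was -7.88 (unadjusted p = 0.00483, edgeR adjusted p = 1).

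The difference between the sexes for Slc17a7 was 11.73 (SE 3.37, edgeR adjusted p = 0.98). DESeq2 on the same libraries put it past the threshold, at 11.73 with an adjusted p = 0.00799. It was 7.92 without male_KO1 and 5.43 without female_WT2, with edgeR adjusted p values of 1 in both fits. Across both sexes the KO effect on Slc17a7 was -0.19 in the additive model (SE 5.62), and 4.08 without female_WT2. As the mean of the sexes in the fit of 4 groups it was -1.02 (SE 1.55). WT males and females differed by -1.29 (SE 1.86, edgeR adjusted p = 0.98), and by 5.02 without female_WT2.

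Among the markers of myelinated afferents, Pvalb followed Slc17a7 from library to library. Of the 11858 genes ranked, Pvalb, which encodes parvalbumin and marks proprioceptors, had the log2 CPM pattern most like it (Pearson r = 0.965 over the 8 libraries, which share their groups). Pvalb stood at 2.71 and 1.04 CPM in male WT, 83.1 and 6.24 CPM in male KO, 0.459 and 17.3 CPM in female WT, and 0.509 and 0.225 CPM in female KO. Both genes were highest in male_KO1, then in female_WT2, then in male_KO2, and lowest in female_KO2. The next most alike were Spr, an enzyme of tetrahydrobiopterin synthesis (r = 0.962), and Mrpl49, a mitochondrial ribosomal protein (r = 0.961), whose levels ranged only from 39.9 to 54.9 CPM and from 57.6 to 81.4 CPM.

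Nefh, the heavy neurofilament chain of large neurons, shared the peak in male_KO1 (1551 CPM) but not the rank of female_WT2, which had the lowest Nefh (61.4 CPM). Necab2, a calcium-binding protein and the remaining leader of this list, went the other way and was lowest in male_KO1. It stood at 114 and 108 CPM in male WT, 55.8 and 101 CPM in male KO, 151 and 146 CPM in female WT, and 110 and 180.5 CPM in female KO. In males 9 of the 10 tested myelinated afferent markers had a positive fold change, with a median of 3.76 against 0.02 over all tested genes. None passed in edgeR, and 4 (Nefh, Pvalb, Etv1 and Ntng1) had an unadjusted p below 0.05, against 3.50% of all tested genes. DESeq2 passed 3 of these, all but Pvalb. For 4 of the 10 neither male KO library reached down to the WT range, and 1 had both KO libraries below it. Of all tested genes 14.5% lay above in this way and 14.5% below. In females 3 were positive and 6 negative, with a median of -0.67, or -1.30 without Esrrg, which had 0 counts in all 4 female libraries. There Pvalb and Etv1 had an unadjusted p below 0.05, against 3.81% of all tested genes, and DESeq2 passed Etv1. For the difference between the sexes DESeq2 passed Pvalb, Etv1 and Ntng1. The summed level of this list was 492 and 351 CPM in male WT, 2196 and 597 CPM in male KO, 485 and 426 CPM in female WT, and 564 and 464 CPM in female KO. Of the 11 markers, between 0 (male_KO1) and 4 (female_KO1, Runx3, Calb1, Esrrg and Ntng1) were at 0 counts in a library. Pvalb and Nefh were above 0 in all 8.

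Markers of other cells shared signs with Slc17a7 as well. Of 8 peptidergic nociceptor markers 7 were positive in males (median 1.44), 7 negative in females (median -1.56) and 8 positive for the difference between the sexes (median 4.09). Over all tested genes these medians were 0.02, 0.00 and 0.02. DESeq2 passed 2, 2 and 3 of the 8 markers, and 166, 167 and 217 of the 22013 tested genes. None of the markers passed in edgeR. In edgeR 2, 4 and 4 of them had an unadjusted p below 0.05, against 3.50%, 3.81% and 4.73% of all tested genes. Their sum was 697 and 753 CPM in male WT and 1503 and 2081 CPM in male KO. In females it was 1203 and 1932 CPM in WT, and 1565 and 507 CPM in KO. Female_KO2 was lowest, as for Slc17a7. The sum in female_KO1, where Slc17a7 had 4 counts, lay above that in male_KO1, where Slc17a7 was highest. Gal, the neuropeptide galanin, named after its values were seen, was highest in male_KO1 (148.8 CPM) and female_WT2 (68.6 CPM) and lowest in female KO (0.685 and 1.33 CPM).

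Of 9 glial markers 7 were positive in males (median 1.13) and 8 negative in females (median -0.47), against medians of 0.02 and 0.00 over all tested genes. Both male KO libraries lay above both male WT libraries for 6, against 14.5% of all tested genes. DESeq2 passed S100b in males and none in females, where it passed 166 and 167 genes in all. None passed in edgeR, with 3 and 1 at an unadjusted p below 0.05, against 3.50% and 3.81% of all tested genes. Their sum was highest in male_KO1 (3934 CPM), then in female_WT2 (3057 CPM), as for Slc17a7, and lowest in male_WT2 (906 CPM). Male_KO2 (2741 CPM) was nearly level with female_KO2 (2732 CPM), the library with the lowest Slc17a7. All 5 tested nonpeptidergic and pruriceptor markers were positive in males (median 1.93), and 3 were negative in females (median -0.34). Their sum was highest in male_KO2 (399 CPM), against 110.2 CPM in male_KO1 and 56.6 CPM, the lowest, in female_KO2. The part of any of these cells in the values of Slc17a7 was not tested.

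**Figure D3:**
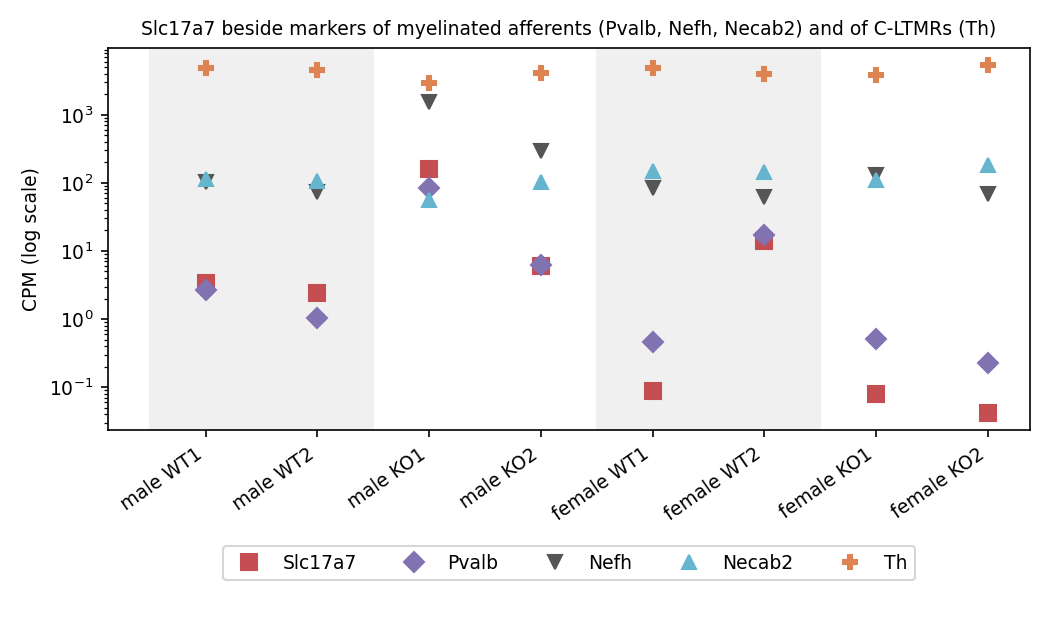
CPM (log axis) of Slc17a7, of Pvalb, Nefh and Necab2 as markers of myelinated afferents, and of Th as marker of C-LTMRs, in each of the 8 libraries, 1 point per gene and library; shading marks WT. Slc17a7 and Pvalb share their 3 highest libraries and range between 0.0421 and 162 CPM and between 0.225 and 83.1 CPM, while Necab2 is lowest in male_KO1 (55.8 CPM) and Th lies between 2976 and 5359 CPM.

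Slc17a6 and Slc17a8 had other companions. The genes most like Slc17a6 were Polr2b, a subunit of RNA polymerase II (r = 0.970), Rab15, a small GTPase of endosomes (r = 0.964), and Nfe2l2, the transcription factor NRF2 (r = 0.963). Those most like Slc17a8 were Lmln (r = 0.941), Fam241a (r = 0.929) and D130079A08Rik (r = 0.928). These are the highest of 11858 correlations per transporter over 8 points, and they are given as a description.

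Other genes of vesicle filling and transmitter supply were read from 5 lists, and none of their members passed in edgeR in any comparison. DESeq2 passed Slc1a3, a glial glutamate transporter, in females and Slc6a12, a betaine and GABA transporter, in each sex and with opposite signs, and both for the difference between the sexes. Among the 5 remaining SLC17 genes only Slc17a5, the lysosomal sialic acid transporter sialin, was detected, at 16.3 to 44.9 CPM. Slc17a1, Slc17a2, Slc17a3 and Slc17a4 had 0 counts throughout. Transport by all members depends on the vesicular proton pump, whose list of 18 genes, the chloride exchanger Clcn3 included, was tested in full. The median log2 fold change was 0.00 in males and -0.03 in females. Across both sexes 11 were positive and 7 negative, with 0 at an unadjusted edgeR p below 0.05, against 3.56% of all tested genes. The pump subunits Atp6v1f, Atp6v0b and Atp6v1g1 led per length, with 349 to 652 CPM, 548 to 802 CPM and 145 to 265 CPM.

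Glutamate supply and uptake was represented by 14 tested genes, of which 10 were positive in males (median 0.18) and 4 in females (median -0.12), against all-gene medians of 0.02 and 0.00. Per length the list was led by Got1 and Got2, the aspartate aminotransferases, and Glul, the glutamine synthetase of glia. Got1 lay between 144 and 227 CPM, Got2 between 224 and 317 CPM, and Glul between 83.0 CPM in male_KO2 and 169 CPM in male_KO1.

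Genes that make, take up or break down GABA and glycine were few and low. Of 10 listed, 7 were tested, with 2 positive in males (median -1.17) and 5 in females (median 1.89). With genes at 0 counts in a whole group set to a bound of 3 counts per library, or left out where both groups were at or below it, the medians were -1.17 and 1.03. The highest per length were Aldh5a1 and Abat, both enzymes of GABA breakdown, at 8.13 to 23.3 CPM and at 4.38 to 29.5 CPM, and Slc6a13, a GABA transporter, at 2.24 to 11.7 CPM. The GABA-synthesising enzymes and the neuronal glycine transporter were named after their values were seen. Gad2 had 2 counts in male_KO2 and 0 elsewhere, and Slc6a5 had 0 in every library. Gad1 had 0 counts in 6 libraries, 72 in male_WT2 and 143 in female_KO2.

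Of 9 other vesicular proteins, 6 were tested, with 4 positive in males (median 0.24) and 5 in females (median 0.52). Sv2c and Sv2a, vesicle proteins of the SV2 family, led per length at 513 to 758 CPM and 115 to 243 CPM, followed by the polyamine transporter Slc18b1 at 1.02 to 12.0 CPM. Slc18a2, which loads monoamines, stood at 1.15 to 8.04 CPM, and the acetylcholine transporter Slc18a3 had 0 counts throughout. Both were named after their values were seen.

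**Figure D4:**
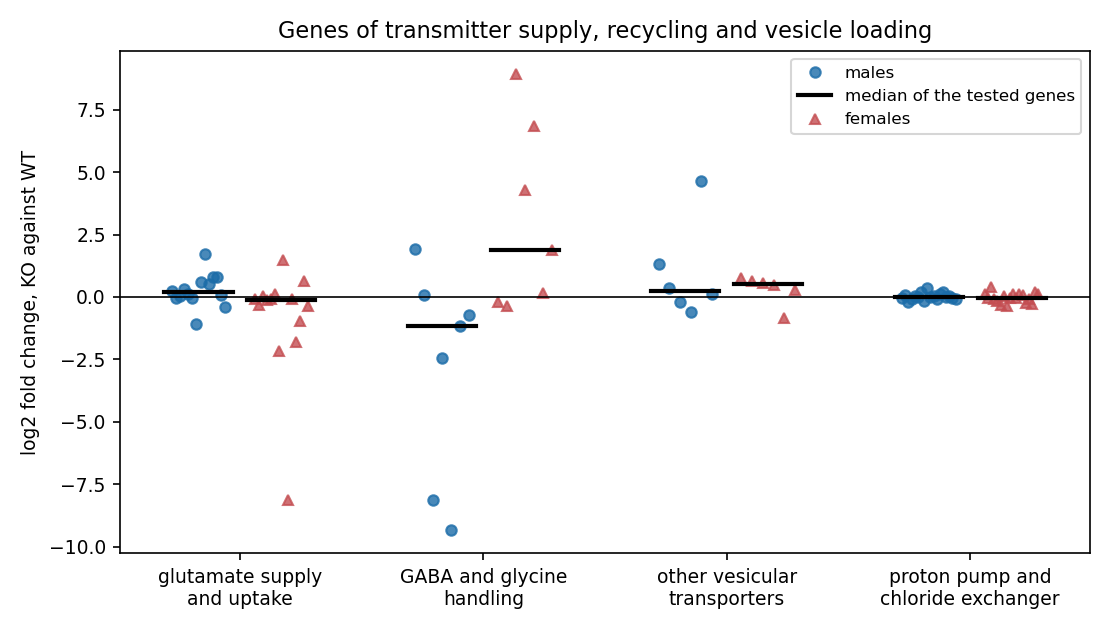
Log2 fold changes of KO against WT for each tested gene of 4 lists, in males (circles) and females (triangles), with the median of each set as a bar. The 18 proton pump genes lie closest to 0, and the widest spread is among the low GABA and glycine genes, with medians of -1.17 in males and 1.89 in females.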

How the data were processed

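The authors' deposited count file holds whole-number counts per gene for 8 libraries, made, per the file headers, by featureCounts 1.6.1 on the exons of GRCm38 (Ensembl release 97) without using strand. A read over several genes counted for each of them. The headers call the alignments unique, and no aligner is named. The submitters' processing notes name DESeq2 1.14.1. The authors' deposited tables of genes past 5% hold, per the file headers, log2 fold changes, a test statistic (a score) and p-values. They were read only to see which genes are listed. Per the labels' protocols, SMART-Seq v4 cDNA from 500 pg of RNA went through 13 PCR cycles, and the tagmented library through 12 more.

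Symbols were matched by identifier for 55394 of 55573 genes. Genes were kept by filterByExpr (22013), scaled by TMM and tested with edgeR 4.0.16 in R 4.3.3 (robust quasi-likelihood F test, two-sided, Benjamini-Hochberg). A fit of 4 groups served the comparisons within a sex, between the sexes and of WT males with WT females, and an additive model of sex and genotype that of KO with WT. An SE is the fold change divided by the root of F. The scripts were tested on simulated data. Log2 CPM used a prior count of 2. The members, lists and tests were chosen with earlier results of these data known. Named genes were Bhlha9, the members, the 3 highest genes per length of each list (peptidergic, nonpeptidergic and glial markers are given as lists), and the 3 genes of at least 5 CPM most correlated with each detected member. Alternatives were DESeq2 1.42.0, DESeq2's size factors, no filter, a replicate block, fits of 1 sex, the mean of the sexes and leaving out each library.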

Additional observations from a re-analysis of the deposited data

Results flagged for a closer look

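Slc17a7 in the 4 KO libraries had 1 library far from the others. The gap between male_KO1 (162 CPM) and the next highest, male_KO2 (6.06 CPM), was 0.963 of the whole range of the 4. Such a gap is flagged by chance in about 1 in 20 groups if the values of a group are normally distributed. The gap was taken on CPM and over both sexes, with values from 0.0421 CPM (female_KO2) to 162 CPM (male_KO1). Whether the rate holds for such values was not tested, and the gap was not taken on the log2 scale. The groups examined were 6 (3 genes in the 4 KO and the 4 WT libraries). Reads assigned to Mir7055, a microRNA gene inside Slc17a7 that shares no exon bases with it, had the same peak, with 250 counts in male_KO1 against 0 to 23 elsewhere.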

How the results depend on the processing

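Of 188 values of the 3 members under the alternatives, 172 kept their direction and their side of the threshold. That count is no measure of stability, because leaving out a library of 1 sex could hardly move a comparison within the other. Slc17a7 in males, for example, stayed at 4.84 without any 1 of the female libraries. The difference between the sexes for Slc17a7 crossed the threshold under DESeq2 alone (11.73, adjusted p = 0.00799, with adjusted p values from 0.00799 to 1 over its alternatives), and 15 reversed their sign without passing, all when a library was left out. Leaving out each library in turn moved the log2 fold change across both sexes from -0.11 to 0.13 for Slc17a6, from -4.20 to 4.08 for Slc17a7 and from -0.25 to 0.030 for Slc17a8. It ranged from -0.36 to 0.054 for Slc17a6 and from 1.05 to 5.77 for Slc17a7 in males, and in females from -0.067 to 0.38 for Slc17a6, from -7.88 to -0.59 for Slc17a7 and from -0.046 to 0.43 for Slc17a8. Between WT males and females it ranged from -2.28 to 5.02 for Slc17a7 and from -0.20 to 0.28 for Slc17a8. A group left with 1 library was assumed to vary like the others.

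Counts of genes that passed depended on the tool. DESeq2 gave 52 genes across both sexes, 166 in males, 167 in females, 217 for the difference between the sexes and 135 between WT males and females. Without a filter 3 genes passed in the last comparison, and leaving out each library gave 0 to 1, with 1 gene without female_KO1 and without female_KO2. Fits of 1 sex alone gave 0 genes in males and 0 in females, and Slc17a7 was not kept in the female one. With the replicate number as a block 0 genes passed in females, and no call of a member changed. Deviations of same-numbered libraries from their group means correlated between -0.10 and 0.11 over 6 pairs of groups. With 2 libraries per group, such low values cannot exclude that the numbers mark a pairing or a batch. The cause of these shifts was not tested.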

Other observations

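Several low genes of transmitter handling were read in single libraries or pairs, and their values are given without explanation. Slc6a12, the betaine and GABA transporter, stood at 1.36 and 1.29 CPM in male WT with 0 counts in male KO, and at 4.74 and 3.88 CPM in female KO against 0.0706 and 0 CPM in female WT. Slc1a3, the glial glutamate transporter, stood at 4.13 and 1.41 CPM in female WT and at 0 and 0.0140 CPM in female KO. Sv2b, a vesicle protein, stood at 1.05 and 0.425 CPM in male WT and at 25.8 and 10.8 CPM in male KO. The 3 single genes were chosen after their values were seen. None passed in edgeR (adjusted p = 1), while DESeq2 passed Slc6a12 in each sex, Slc1a3 in females and both for the difference between the sexes.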
